A study of Mus musculus with 6 samples.

Results

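HOX genes encode homeodomain transcription factors that give cells their position along the body axis. In mammals they lie in 4 clusters, Hoxa to Hoxd, in which the order of the genes matches the order of their expression from head to tail, and fibroblasts in culture keep much of the HOX pattern of the site they came from. Polycomb proteins keep silent HOX genes off, MLL and Trithorax proteins keep active ones on, and retinoic acid induces the genes at the anterior end of the clusters. The 39 members were the protein-coding genes of the mouse annotation named Hox followed by a cluster letter and a paralogue number, out of 55401 genes counted. They comprised 11 Hoxa, 10 Hoxb, 9 Hoxc and 9 Hoxd genes.

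Poly(A)-selected RNA-Seq was performed on NIH3T3 cells, an immortalised mouse embryonic fibroblast line. EV cells carried the empty vector and TC cells stably expressed TAZ-CAMTA1 (TC), the fusion protein of epithelioid hemangioendothelioma, which acts as an activated form of TAZ and binds the TEAD transcription factors. The EV group (2 libraries) and the TC group (1 library) received the vehicle DMSO, and the TC + ATA group (3 libraries) received 10 μM aurintricarboxylic acid (ATA), a small molecule under study for blocking the binding of TAZ to TEAD. All cells were grown for 16 h before a treatment of 48 h. EV against TC shows what differed between the 2 lines, TC + ATA against TC what differed with the drug, and TC + ATA against EV how the treated fusion cells stood beside the control line.

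The libraries held 74413193 and 70428345 counts for EV, 71677675 for TC, and 58471484, 72252063 and 69969024 for TC + ATA. The EV libraries differed from each other more than the TC + ATA libraries did, with a chi-square per degree of freedom of 67.3 for the EV pair against 6.23 to 7.04 for the TC + ATA pairs, so calls that changed without either EV library are named below. All 13 fibroblast markers were measured and passed the low-count filter, with a summed level of 16888 and 14743 CPM (counts scaled to a common library size) in EV, 18612 in TC, and 19419, 19168 and 18232 in TC + ATA, and Col1a2 was their most abundant gene. The sum does not speak for each of them: at an edgeR adjusted p of at most 0.05, 2 were higher (Col1a1 and Vim) and 5 lower (Dcn, Thy1, Lum, Pdgfra and Fn1) in TC against EV, with a median log2 difference of -0.18. These are 15.4% and 38.5% of the 13, beside 14.8% and 13.2% of all genes. In TC + ATA against EV 6 were higher and 4 lower (46.2% and 30.8%, beside 18.0% and 18.6%). The 10 epithelial markers summed to 2.63 and 1.60 CPM in EV, 4.65 in TC, and 3.27, 3.46 and 4.77 in TC + ATA, with Cldn3 at 0. Krt14, the most abundant of them, was at 1.97 and 1.19 CPM in EV, 3.36 in TC, and 2.31, 2.26 and 3.45 in TC + ATA. Of the 4 tested it alone was called, higher in TC against EV (median of the 4, 1.46), and 0 were called in TC + ATA against EV (1.12). The 8 endothelial markers, led by Pecam1, summed to 3.09 and 2.09 CPM in EV, 4.32 in TC, and 4.63, 4.26 and 3.74 in TC + ATA. Of these 8, Cdh5 was called higher in TC against EV (median of the 8, 0.72) and Kdr in TC + ATA against EV (0.67). In both lists the sums of the TC-expressing libraries stood above EV, at low levels. The 4 pluripotency markers summed to between 0.451 and 0.848 CPM, led by Nanog, with Zfp42 at 0. The 6 neural markers summed to 9.51 and 10.0 CPM in EV, 7.12 in TC, and 4.79, 5.12 and 4.28 in TC + ATA, with Olig2 at 0. Of the 2 tested, Snap25 was lower in TC and in TC + ATA than in EV, and Tubb3, the most abundant, in TC + ATA only. The 5 skeletal muscle markers summed to 283 and 199 CPM in EV, 259 in TC, and 411, 340 and 306 in TC + ATA, most of it from Acta1, which was called higher in TC + ATA against EV. The 7 blood markers summed to 9.96 and 9.68 CPM in EV, 12.2 in TC, and 13.4, 18.3 and 18.1 in TC + ATA. Lyz2, the most abundant of them over all libraries though not in EV, was at 0.495 and 0.249 CPM in EV, 5.66 in TC, and 8.94, 9.59 and 8.40 in TC + ATA, while Itgam had at most 3 counts in any library. Csf1r went the other way, at 3.17 and 2.77 CPM in EV, 1.41 in TC, and 1.72, 0.846 and 1.15 in TC + ATA, where it was called lower against EV, and the median log2 difference of the 5 blood markers tested was -0.44 in TC against EV. The part of these markers in the Hox differences was not tested.

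The Hox genes of these cells were mostly those of the central paralogue groups. Per kilobase of exon, Hoxd8 had the highest level in EV (32.6 ± 0.888 CPM per kb, SD, n = 2), followed by Hoxa5 (31.1 ± 0.284) and Hoxa7 (19.0 ± 1.41). Hoxa6 (10.0 ± 1.60) and Hoxd9 (9.65 ± 0.127) came next and did not differ beyond their spread. Hoxa2 stood at 6.56 ± 0.0364 CPM per kb, and Hoxa4 (4.79 ± 0.611), Hoxa3 (4.25 ± 0.378) and Hoxc6 (3.76 ± 0.353) below it, where the mean ± SD ranges of adjacent genes overlapped among these last 3. Hoxc4 was at 2.50 ± 0.261 and Hoxc5 at 1.64 ± 0.0141 CPM per kb. The highest Hoxb gene in EV was Hoxb9, at 0.311 ± 0.0151 CPM per kb. In TC the first 3 places were again held by Hoxd8 (27.4 CPM per kb), Hoxa5 (13.2) and Hoxa7 (12.3). In TC + ATA the same genes led, at 25.5 ± 1.18 for Hoxd8, 15.5 ± 0.900 for Hoxa5 and 13.7 ± 0.288 CPM per kb for Hoxa7 (n = 3). The place of a gene depends on its assumed length: by the longest annotated transcript, Hoxa3 stood at 9.87 CPM per kb in EV and moved from place 8 to place 5.

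**Figure D1:**
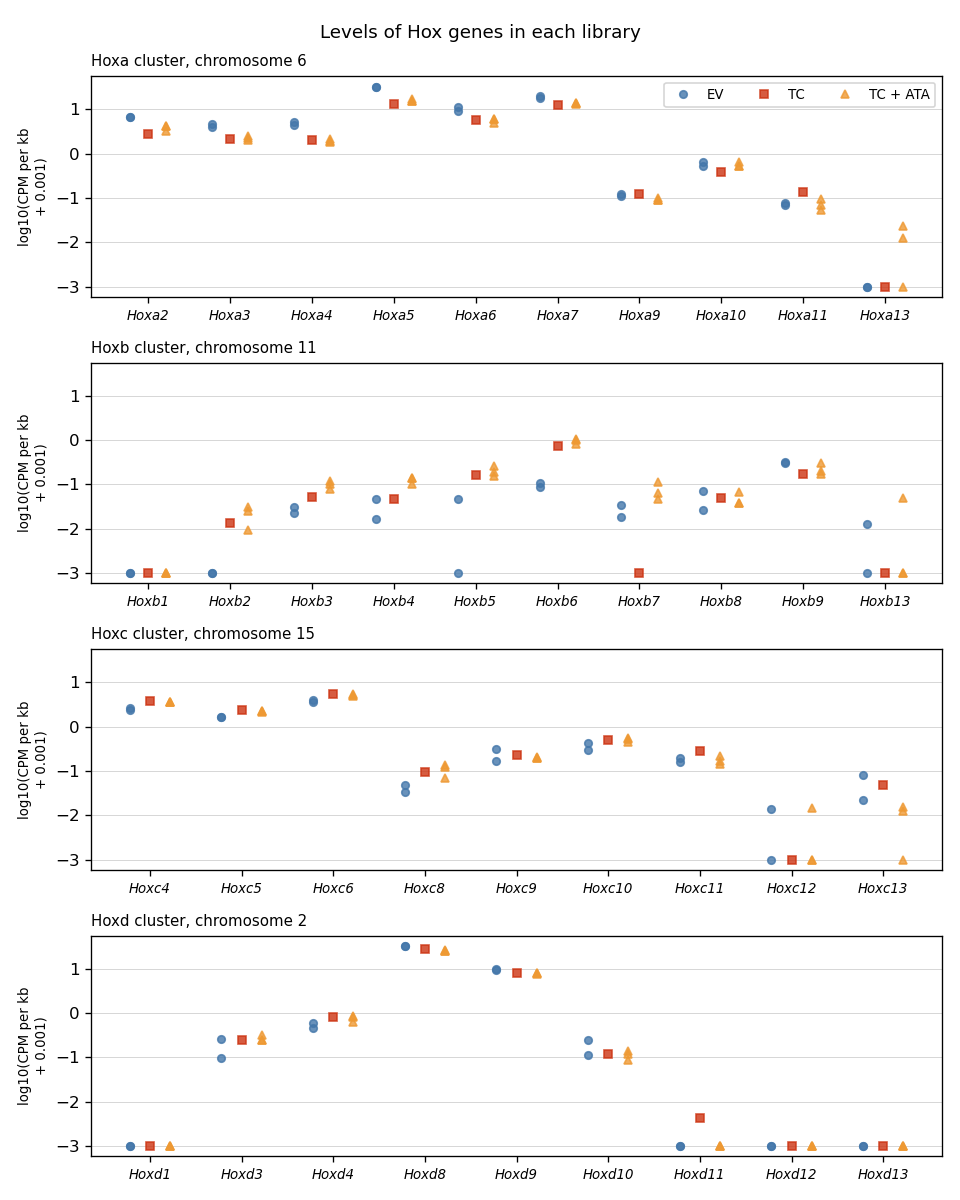
Levels of Hox genes in each library, as the base-10 logarithm of CPM per kilobase of exon plus 0.001, with 1 panel per cluster and genes in paralogue order; each point is a library, and a point at -3 has 0 counts. Hoxd8, Hoxa5 and Hoxa7 lie highest in every group, and most posterior genes (groups 9 to 13) lie low.

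Levels were low toward the posterior ends of the Hoxa, Hoxc and Hoxd clusters. In Hoxb all levels were low, and the posterior gene Hoxb9 was the highest of them in EV. Of the 16 posterior genes (groups 9 to 13), 10 passed the low-count filter, and only Hoxd9 and Hoxa10 averaged 1 CPM or more over the libraries. All 15 central genes (groups 4 to 8) and 5 of the 8 anterior genes (groups 1 to 3) passed. Posterior and anterior genes thus passed in equal share, and the anterior genes Hoxb1 and Hoxd1 had 0 counts in every library. In the Hoxd cluster the step was between neighbours: Hoxd8 and Hoxd9 had at most 6943 and 1586 counts in a library, Hoxd10 had at most 33, Hoxd11 at most 1, and Hoxd12 and Hoxd13 had 0 in every library.

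In total 30 Hox genes were tested and 9 were not. Hoxb1, Hoxd1, Hoxd12 and Hoxd13 had 0 counts in all 6 libraries, which allows a level of up to 0.0393 to 0.0528 CPM (3 counts, counting error only). Hoxc12 and Hoxd11 had at most 1 count. Hoxa13 had at most 4 counts, Hoxb13 at most 6, and Hoxb2 had 0 and 0 counts in EV, 3 in TC, and 6, 6 and 2 in TC + ATA. Another 12 genes were tested but averaged under 1 CPM and were called in no comparison: Hoxa9, Hoxa11, Hoxb7, Hoxb8, Hoxb9, Hoxc8, Hoxc9, Hoxc10, Hoxc11, Hoxc13, Hoxd3 and Hoxd10. They had between 0 and 93 counts per library, and their lowest adjusted p in any comparison was 0.0816 (edgeR). The remaining 18 genes were called in at least 1 comparison or averaged at least 1 CPM. Values of single libraries are CPM after TMM scaling.

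TC and EV cells differed along the Hoxa cluster on chromosome 6, where Hoxa2 to Hoxa7 were all lower in TC than in EV. In the other clusters Hoxb6, Hoxc4, Hoxc5 and Hoxc6 were higher in TC. In all, 5 of the 39 Hox genes were called higher and 6 lower, where called means an adjusted p of at most 0.05 in edgeR's quasi-likelihood test with Benjamini-Hochberg adjustment over 18539 genes. Of the 18539 genes, 14.8% were called higher and 13.2% lower, so the Hox shares (16.7% and 20% of the 30 tested) were not far from the background. The single TC library gives no spread of its own, and the test took the spread of the EV and TC + ATA libraries to hold for it. The labels do not say that libraries of a group came from separate cultures, so the p-values measure the spread between these libraries, which may be technical, and differences between the EV and TC cells that have another source cannot be told apart from those of TC itself.

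Hoxa5, a regulator of lung and axial skeleton development and the most abundant Hoxa gene per length, was at 58.8 and 58.1 CPM in EV, 24.7 in TC, and 28.1, 31.0 and 28.1 in TC + ATA. The EV libraries lay far above all TC-expressing libraries, and the difference between TC and EV was -1.24 on the log2 scale (SE 0.0997, 95% interval -1.47 to -1.02, edgeR adjusted p = 2.73e-05). None of its 1877 exonic bases overlaps another gene. Hoxa7 was at 57.5 and 51.8 CPM in EV, 35.4 in TC, and 39.3, 40.1 and 38.5 in TC + ATA. Its log2 difference of -0.63 (SE 0.0947, edgeR adjusted p = 0.00121) was the smallest of the 6 lower genes, and the EV libraries were again above all TC-expressing ones. Hoxaas3 overlaps 20.4% of its exonic bases on the opposite strand. The strand setting of the counting was not stated, so reads of a Hox gene and its antisense partner cannot be told apart where exons overlap.

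Hoxa2, which patterns the hindbrain and the second pharyngeal arch, was at 11.7 and 11.6 CPM in EV, 4.80 in TC, and 5.63, 7.42 and 7.23 in TC + ATA. Hoxa3, needed for thymus and parathyroid, was at 24.0 and 27.2 CPM in EV, 12.6 in TC, and 15.0, 12.1 and 13.1 in TC + ATA. In both genes the groups of EV and TC-expressing libraries were apart, with TC minus EV at -1.28 for Hoxa2 (SE 0.188, edgeR adjusted p = 0.00103) and -1.02 for Hoxa3 (SE 0.151, adjusted p = 0.00106). Other genes share 33.4% of the exonic bases of Hoxa3 and 15.0% of those of Hoxa2.

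Hoxa4 was at 8.33 and 6.95 CPM in EV, 3.18 in TC, and 3.31, 2.88 and 3.12 in TC + ATA. Hoxa6 was at 7.78 and 9.76 CPM in EV, 4.94 in TC, and 5.16, 5.35 and 4.17 in TC + ATA. Both were lower in every TC-expressing library than in either EV library, by -1.26 for Hoxa4 (SE 0.197, edgeR adjusted p = 0.00143) and -0.83 for Hoxa6 (SE 0.210, adjusted p = 0.0173) in TC against EV. The run of genes called lower ended at Hoxa7, which does not show that the differences ended there. Hoxa9, with at most 51 counts in a library, had a 95% interval of -0.85 to 1.04 in TC against EV. Hoxa10, the next gene with an average of at least 1 CPM, was at 2.09 and 1.70 CPM in EV, 1.24 in TC, and 1.72, 1.68 and 2.11 in TC + ATA, and was called in no comparison (TC minus EV -0.61, 95% interval -1.29 to 0.07). All 6 genes, Hoxa2 to Hoxa7, were also called lower by DESeq2.

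In the Hoxb cluster (chr11:96194316-96368256, GRCm38) levels were low, and in TC against EV 1 of the 7 genes tested was called. This gene, Hoxb6, was at 0.174 and 0.210 CPM in EV, 1.41 in TC, and 2.08, 1.61 and 1.98 in TC + ATA. These values rest on 13 and 16 counts in EV and on 98 to 138 counts in the TC-expressing libraries, which all stood above EV. The log2 difference between TC and EV was 2.87 (SE 0.359, 95% interval 2.05 to 3.68, edgeR adjusted p = 0.000394). Hoxb6 was the only Hox gene also past the study's limit of an absolute log2 fold change of 2 in TC against EV, a rule that called 2.36% of all genes higher and 1.27% lower. Hoxb5 was at 0 and 0.131 CPM in EV, 0.447 in TC, and 0.422, 0.705 and 0.518 in TC + ATA. Its EV values were below the rest, but the difference was not called in TC against EV (2.73, SE 1.00, edgeR adjusted p = 0.0756). DESeq2 called it, as did edgeR without EV replicate 2, which brought the higher genes to 7 with Hoxd3.

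Hoxb3 was at 0.0936 and 0.131 CPM in EV, 0.216 in TC, and 0.440, 0.339 and 0.518 in TC + ATA. Hoxb4 was at 0.120 and 0.0393 CPM in EV, 0.115 in TC, and 0.352, 0.254 and 0.359 in TC + ATA. Neither was called in TC against EV, with 95% intervals of -0.61 to 2.47 for Hoxb3 and -1.52 to 2.57 for Hoxb4. The TC library lay above both EV libraries for Hoxb3 and between them for Hoxb4, and all TC + ATA libraries lay above TC in both genes. These values rest on at most 36 counts in a library, and the intervals are wide. Hoxb3 shares 52.9% of its exonic bases with other genes.

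The Hoxc cluster (chr15:102921103-103036852) moved by less. Hoxc4 was at 5.94 and 6.89 CPM in EV, 9.45 in TC, and 9.15, 9.32 and 9.29 in TC + ATA. Hoxc5 was at 5.04 and 5.10 CPM in EV, 7.13 in TC, and 6.83, 6.74 and 7.02 in TC + ATA. Hoxc6 was at 8.45 and 9.65 CPM in EV, 13.1 in TC, and 13.1, 12.1 and 11.7 in TC + ATA. All 3 were higher in each TC-expressing library than in each EV library. TC stood above EV by 0.56 for Hoxc4 (SE 0.138, edgeR adjusted p = 0.0154), 0.49 for Hoxc5 (SE 0.140, adjusted p = 0.0285) and 0.53 for Hoxc6 (SE 0.132, adjusted p = 0.0164).

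These 3 calls were close to the threshold and depended on the scaling. Library size alone moved the median log2 difference of all genes between TC and EV from -0.03 to -0.13, and called 2072 genes higher and 3159 lower in place of 2735 and 2456. Among the Hox genes it called 2 higher and 8 lower in place of 5 and 6, since Hoxc4, Hoxc5 and Hoxc6 were lost (adjusted p 0.0717, 0.0920 and 0.0748) and Hoxd8 and Hoxd9 were added. Relative to the median of all genes the 3 Hoxc differences hardly moved, from 0.59, 0.52 and 0.56 to 0.58, 0.52 and 0.55. The call of Hoxc5 was also lost in DESeq2 (adjusted p = 0.0607). It was lost too without TC + ATA replicate 1, 2 or 3 (edgeR adjusted p 0.0620, 0.0623 and 0.0611). Over all 12 alternatives its adjusted p ran from 0.0234 to 0.181. A replicate block lost the calls of Hoxc5 and Hoxc6 and left that of Hoxc4. A fit of the EV and TC libraries alone, with a spread from the EV pair only, called none of the 3 and left 3 Hox genes higher, Hoxb5 and Hoxb6 among them.

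In the Hoxd cluster (chr2:74668310-74765142) the most abundant genes differed least. Hoxd8 was at 87.6 and 91.1 CPM in EV, 75.1 in TC, and 67.4, 73.6 and 69.0 in TC + ATA. Hoxd9 was at 20.4 and 20.8 CPM in EV, 16.9 in TC, and 16.9, 16.9 and 16.0 in TC + ATA. Both were lower in all TC-expressing libraries than in EV, by amounts that were not called in TC against EV: -0.25 for Hoxd8 (SE 0.0864, edgeR adjusted p = 0.0600) and -0.28 for Hoxd9 (SE 0.102, adjusted p = 0.0708). Without EV replicate 1 both were called (adjusted p 0.00540 and 0.0279) and 8 Hox genes were lower, and without EV replicate 2 Hoxd8 was called (0.0228) and 7 were lower. Over all 12 alternatives the adjusted p ran from 0.00540 to 0.365 for Hoxd8 and from 0.0279 to 0.348 for Hoxd9. Hoxd4 was at 1.38 and 1.72 CPM in EV, 2.42 in TC, and 2.45, 1.86 and 2.56 in TC + ATA, and was called in no comparison. The value of Hoxd4 is uncertain, because 64.1% of its exonic bases lie within other annotated genes, among them Hoxd3 and the readthrough gene Gm28230.

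No Hox gene was called in TC + ATA against TC in edgeR, and none in DESeq2. At an unadjusted p under 0.05, edgeR gave 3 higher (Hoxa2, Hoxa5 and Hoxb7, named after their values were seen) and 0 lower among the 30 tested, 10% and 0% beside 5.65% and 3.95% of all genes at that limit. At the adjusted limit 0.426% of all genes were called higher and 0.156% lower. The adjusted p of the Hox genes ran from 0.382 to 0.989. The TC library enters this comparison and TC against EV with opposite signs, so an error in that library would show in both.

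The intervals were narrow for the abundant genes. For Hoxa5, TC + ATA stood above TC by 0.24 (95% interval 0.03 to 0.44, edgeR adjusted p = 0.446), less than the difference of -1.24 between TC and EV. For Hoxa2 the value was 0.50 (95% interval 0.10 to 0.90, adjusted p = 0.386) beside -1.28, and all 3 TC + ATA libraries lay between TC and EV. Hoxb6 differed by 0.42 (95% interval -0.29 to 1.13), with all 3 TC + ATA libraries above TC. Over the 11 Hox genes called in TC against EV, the values in TC + ATA against TC ran from -0.09 to 0.50, and their intervals reached from -0.46 to 1.13. Hoxb7 had 0 counts in TC against 4, 7 and 12 in TC + ATA and 2 and 4 in EV, too few to give a fold.

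**Figure D2:**
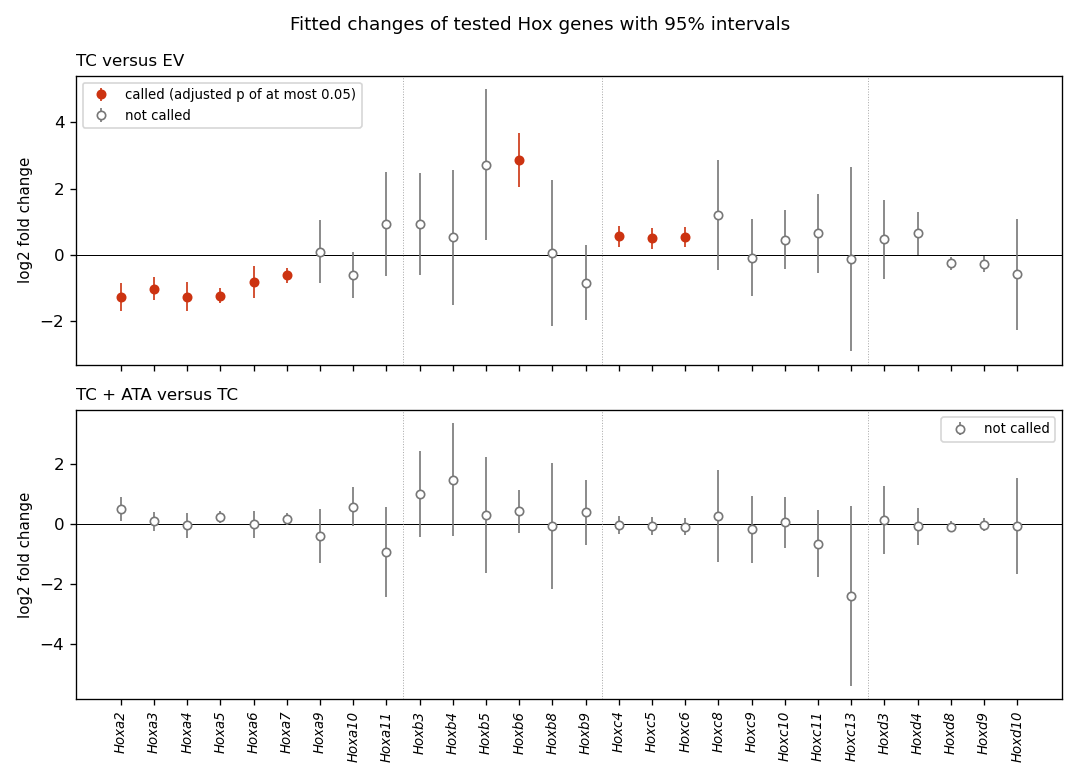
Fitted log2 fold changes of tested Hox genes with 95% intervals (edgeR), TC versus EV above and TC + ATA versus TC below, in cluster and paralogue order; filled points were called and open points were not, dotted lines part the clusters, and Hoxb7 is left out because TC has 0 counts. Hoxa2 to Hoxa7 lie below 0 in the upper panel, and no gene is called in the lower panel; Hoxc4, Hoxc5 and Hoxc6 are not called with library size alone, which adds Hoxd8 and Hoxd9.

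TC + ATA against EV shares its controls with TC against EV and has 3 libraries on the treated side. Here 8 Hox genes were called higher and 8 lower, against a background of 18.0% and 18.6% of all genes (26.7% of the tested Hox genes in each direction, with no test of that difference). Under library size alone the genome-wide calls were 2711 higher and 4384 lower in place of 3340 and 3449, and the Hox calls were again 8 and 8. The higher genes included Hoxb3 (1.92, SE 0.517), Hoxb4 (1.99, SE 0.655), Hoxb5 (3.03, SE 0.841), Hoxb6 (3.29, SE 0.305), Hoxc4 (0.53, SE 0.106), Hoxc5 (0.44, SE 0.107) and Hoxc6 (0.44, SE 0.102). The lower genes were Hoxa2 (-0.78, SE 0.129), Hoxa3 (-0.93, SE 0.106), Hoxa4 (-1.30, SE 0.137), Hoxa5 (-1.01, SE 0.0691), Hoxa6 (-0.84, SE 0.149), Hoxa7 (-0.48, SE 0.0681), Hoxd8 (-0.35, SE 0.0634) and Hoxd9 (-0.31, SE 0.0749). The EV and TC + ATA libraries did not overlap in 22 of the 30 tested Hox genes, among them the 16 called. This does not set the called genes apart, and the share over all genes is not given.

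Of these calls, those of Hoxb3, Hoxb4 and Hoxb5 were the least firm, at edgeR adjusted p of 0.0176, 0.0417 and 0.0205. Without TC + ATA replicate 3 all 3 were lost (adjusted p 0.0697, 0.117 and 0.0642) and 5 Hox genes remained higher, while their log2 differences were 1.77, 1.90 and 3.07. The call of Hoxd9 was lost too (adjusted p = 0.0537, against 0.00439 to 0.0981 over 12 alternatives), at a log2 difference of -0.29 with 1 library fewer. Hoxb4 was lost as well without TC + ATA replicate 1 (0.0912), TC + ATA replicate 2 (0.0733) or EV replicate 2 (0.157) and in DESeq2 (0.0613), which called 7 higher, Hoxb5 without TC + ATA replicate 2 (0.0701) and Hoxb3 without EV replicate 1 (0.0620). Without EV replicate 2 the higher genes came to 9, with Hoxd3 and Hoxd4. The log2 difference of Hoxb4 was 2.96 without EV replicate 1 and 1.41 without EV replicate 2. That of Hoxb5 was 2.04 without EV replicate 1 and 8.24 without EV replicate 2, where the EV library left has 0 counts, so the last value is not a measured fold. Over their 11 alternatives the adjusted p ran from 0.010 to 0.101 for Hoxb3, from 0.0225 to 0.157 for Hoxb4 and from 0.000408 to 0.0701 for Hoxb5. A minimum of 1 CPM in at least 2 libraries removes all 3 from the test.

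Summed over all clusters, the Hox output was lower in the TC-expressing libraries than in EV, and the clusters differed in direction. The Hoxa genes together gave 176 and 173 CPM in EV, 102 in TC, and 114, 115 and 114 in TC + ATA, a log2 ratio of -0.77 for TC to EV and 0.16 for TC + ATA to TC. The Hoxb sum was 1.31 and 1.55 CPM in EV, 2.81 in TC, and 4.54, 3.64 and 4.20 in TC + ATA, with ratios of 0.98 and 0.55. The Hoxc sum was 21.7 and 23.1 CPM in EV, 32.1 in TC, and 31.2, 30.4 and 30.1 in TC + ATA, with ratios of 0.52 and -0.07. The Hoxd sum was 110 and 115 CPM in EV, 95.7 in TC, and 88.1, 93.9 and 88.7 in TC + ATA, with ratios of -0.23 and -0.08. So the Hoxa and Hoxd sums were lower and the Hoxb and Hoxc sums higher in every TC-expressing library than in EV, under each scaling tried, with no test on 2, 1 and 3 libraries. All 39 genes together gave 309 and 313 CPM in EV, 233 in TC, and 237, 243 and 237 in TC + ATA.

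The clusters also hold 47 annotated genes that do not code for protein, of which 14 were tested and 29 had at most 3 counts in any library. In TC against EV 0 were higher and 2 lower, with a median log2 difference of -0.14 beside -0.03 over all genes tested, and 14.3% lower is near the 13.2% of all genes. In TC + ATA against EV 0 were higher and 2 lower (0% and 14.3%, beside 18.0% and 18.6% of all genes), and in TC + ATA against TC 0 of 14 were called by edgeR. Hoxaas2, a transcript of the Hoxa cluster, was at 5.60 and 6.28 CPM in EV, 2.54 in TC, and 2.16, 2.17 and 2.32 in TC + ATA (TC minus EV -1.23, SE 0.201, adjusted p = 0.00187). Hoxd3os1, antisense to Hoxd3, was at 4.69 and 5.56 CPM in EV, 2.28 in TC, and 2.80, 2.24 and 2.24 in TC + ATA (-1.17, SE 0.239, adjusted p = 0.00611). Both were lower in all TC-expressing libraries than in EV, and the fall of Hoxd3os1 had no parallel in Hoxd3 or Hoxd4, neither of which was called. The most abundant of the 47 was Gm11539, a processed pseudogene within the Hoxb cluster (chr11:96248633-96249189), at 18.9 ± 3.87 CPM per kb in EV (n = 2), above every Hoxb gene and singled out after its value was seen. Reads of a processed pseudogene may belong to its parent gene, so this level is uncertain. Hottip and the genes of the microRNAs Mir10b, Mir196a-2 and Mir196b had 0 counts in every library. Mature microRNAs are not captured by poly(A) selection, so their levels were not measured.

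The genes just outside the clusters did not share one direction. Among the 24 neighbours, the 3 nearest protein-coding genes beyond each end of each cluster, 21 were tested, and 4 were called higher and 2 lower in TC against EV, with a median of 0.03. These shares, 19.0% and 9.52%, lie near the 14.8% and 13.2% of all genes. In TC + ATA against EV 3 were higher and 4 lower (14.3% and 19.0%, beside 18.0% and 18.6%), and in TC + ATA against TC 0 of 21 were called by edgeR. Beyond the anterior end of Hoxa, Skap2 was at 63.5 and 65.3 CPM in EV, 50.2 in TC, and 54.4, 54.7 and 57.8 in TC + ATA (TC minus EV -0.36, SE 0.0834, adjusted p = 0.0115). Cbx5, which encodes the heterochromatin protein HP1-alpha and lies beside Hoxc, was at 228 and 237 CPM in EV, 327 in TC, and 323, 320 and 310 in TC + ATA (0.50, SE 0.0807, adjusted p = 0.00183). Nfe2l2, beyond Hoxd and the gene of NRF2, was at 99.6 and 93.1 CPM in EV, 125 in TC, and 139, 132 and 133 in TC + ATA (0.37, SE 0.0822, adjusted p = 0.00936). A fit of the EV and TC libraries alone called none of these 3 genes (adjusted p 0.144, 0.0671 and 0.131), the highest of their 12 alternatives, which began at 0.000951, 1.84e-06 and 9.56e-05. Ttll6, beside Hoxb, had 0 counts in both EV libraries against 28 in TC and 23, 21 and 6 in TC + ATA, at least 10.2-fold higher in TC than the EV floor of 3 counts per library. Evx1 and Evx2, the homeobox genes at the posterior ends of Hoxa and Hoxd, had at most 1 count. Of the Hox genes next to them, Hoxa13 had at most 4 counts and Hoxd13 had 0.

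Promoters of 22 Hox genes (24 windows) were matched by symbol in RefSeq's GRCm38.p6 annotation, each running from 250 bases before to 50 after the gene start. The core TEAD letters GGAATG, searched on both strands, occurred in 2 of these 24 windows, those of Hoxa9 and Hoxd10, and in 14.7% of the 32851 promoters of the table. None of the 6 matched genes called in TC against EV (Hoxa2, Hoxa3, Hoxa5, Hoxa6, Hoxa7 and Hoxc4) held them, which says only that these letters are not in these windows. The Hox windows held 4 to 45 CpG dinucleotides, with a median of 14.5 against 7 over all promoters. CpG-rich promoters are where Polycomb and Trithorax proteins act. The windows of the matched lower genes held 9 (Hoxa2), 20 (Hoxa3), 29 (Hoxa5), 26 (Hoxa6) and 9 (Hoxa7) CpG. The part of CpG content in the Hox differences was not tested. The 250 upstream bases of Hoxa2 (chr6:52164832-52165081) and Hoxa5 (chr6:52204588-52204837), both on the minus strand and with nearly equal log2 differences in TC against EV, hold 6 and 28 CpG and 46.4% and 63.6% G and C. They are shown 5′ to 3′ with CpG in capitals, and the 30 bases of the Hoxa9 window (chr6:52227401-52227430, minus strand) with the TEAD letters in capitals.
Hoxa2: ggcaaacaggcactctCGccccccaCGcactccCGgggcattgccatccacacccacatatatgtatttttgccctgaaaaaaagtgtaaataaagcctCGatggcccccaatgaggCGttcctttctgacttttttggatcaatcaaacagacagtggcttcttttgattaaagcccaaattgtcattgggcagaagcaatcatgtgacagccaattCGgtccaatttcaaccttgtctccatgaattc
Hoxa5: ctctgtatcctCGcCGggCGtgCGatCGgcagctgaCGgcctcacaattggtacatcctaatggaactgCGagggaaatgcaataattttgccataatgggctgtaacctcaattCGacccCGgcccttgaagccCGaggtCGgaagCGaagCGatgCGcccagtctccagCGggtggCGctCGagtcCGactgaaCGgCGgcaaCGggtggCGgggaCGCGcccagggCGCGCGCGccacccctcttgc
Hoxa9: agaaggaaaaggGGAATGggaaggaagggg

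HOX proteins bind DNA with partners of the TALE homeodomain class. The list also held TALE genes that are not such partners, Tgif1 and Tgif2 among them. All 11 TALE genes were tested: 3 were higher and 3 lower in TC against EV (median -0.13), 3 higher and 4 lower in TC + ATA against EV (median -0.16), and 0 were called in TC + ATA against TC by edgeR. The shares in TC against EV were 27.3% and 27.3% beside 14.8% and 13.2% of all genes. In TC + ATA against EV they were 27.3% and 36.4% beside 18.0% and 18.6%. These rest on few genes, and the list was not tested. The genes named next are the 3 called higher in TC against EV, and the 3 called lower are not named. Tgif1, a TALE repressor of retinoid and TGF-beta signalling, was at 63.5 and 64.5 CPM in EV, 137 in TC, and 118, 118 and 126 in TC + ATA (TC minus EV 1.10, SE 0.0783, adjusted p = 1.32e-05). Pknox2 was at 1.47 and 1.48 CPM in EV, 3.69 in TC, and 4.21, 3.63 and 3.31 in TC + ATA (1.32, SE 0.223, adjusted p = 0.00222). Pbx4, at 1.18 and 1.60 CPM in EV, 2.67 in TC, and 3.38, 2.91 and 2.62 in TC + ATA, was higher by 0.94 (adjusted p = 0.0316), a call lost without EV replicate 1 (0.0573) or TC + ATA replicate 2 (0.0612) or 3 (0.0571), with library size alone (0.0658) and in a fit of the EV and TC libraries alone (0.0647), in a range of 0.00667 to 0.0883 over 12 alternatives.

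Of the genes that keep HOX genes silent, all 24 Polycomb subunits were tested: 3 were higher and 6 lower in TC against EV (median -0.08), 2 higher and 9 lower in TC + ATA against EV (median -0.14), and 0 were called in TC + ATA against TC by edgeR. That is 12.5% and 25% beside 14.8% and 13.2% of all genes, and 8.33% and 37.5% beside 18.0% and 18.6%, with no test of the list. Ring1, a ubiquitin ligase of PRC1, was at 55.0 and 52.9 CPM in EV, 37.2 in TC, and 37.7, 35.8 and 36.7 in TC + ATA (TC minus EV -0.54, SE 0.0855, adjusted p = 0.00162). Cbx8, a PRC1 reader, was at 14.4 and 16.0 CPM in EV, 10.5 in TC, and 11.67, 10.97 and 11.01 in TC + ATA (-0.53, SE 0.123, adjusted p = 0.0114), a call lost in a fit of the EV and TC libraries alone (0.0602, in a range of 0.00116 to 0.0753 over 12 alternatives). Scmh1, a PRC1-associated protein, was at 48.0 and 49.0 CPM in EV, 71.1 in TC, and 77.7, 75.2 and 78.0 in TC + ATA (0.55, SE 0.0764, adjusted p = 0.000733). In each of these 3 genes EV stood apart from all TC-expressing libraries. Jarid2, a PRC2 partner, was at 11.7 and 16.3 CPM in EV, 9.38 in TC, and 9.13, 8.62 and 9.06 in TC + ATA. Its difference of -0.58 (adjusted p = 0.0478) was a call lost without EV replicate 2 (0.0660) or TC + ATA replicate 1 (0.0811), 2 (0.0811) or 3 (0.0976), and with a minimum of 1 CPM in at least 2 libraries (0.0568), in a range of 0.000276 to 0.182 over 12 alternatives. The difference itself was -0.32 without EV replicate 2 and -0.81 without EV replicate 1. Their summed level was 2479 and 2459 CPM in EV, 2462 in TC, and 2471, 2451 and 2428 in TC + ATA.

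Of the 16 MLL and Trithorax genes, which keep HOX genes active, 2 were higher and 4 lower in TC against EV (median -0.04), 1 higher and 7 lower in TC + ATA against EV (median -0.12), and 0 were called in TC + ATA against TC by edgeR. Of all genes 14.8% and 13.2% were called in the first and 18.0% and 18.6% in the second, beside 12.5% and 25%, and 6.25% and 43.8%, of these 16, which were not tested as a list. Mllt3, a subunit of the super elongation complex and a fusion partner of MLL in leukaemias with high HOXA expression, was at 106 and 124 CPM in EV, 56.1 in TC, and 59.8, 62.7 and 58.8 in TC + ATA (TC minus EV -1.04, SE 0.108, adjusted p = 0.000128). Dot1l, the H3K79 methyltransferase that works with it, was at 79.1 and 96.9 CPM in EV, 139 in TC, and 128, 125 and 131 in TC + ATA (0.66, SE 0.113, adjusted p = 0.00234). The H3K27 demethylase gene Kdm6a was at 22.4 and 28.7 CPM in EV, 18.2 in TC, and 20.4, 19.5 and 20.4 in TC + ATA (-0.49, SE 0.145, adjusted p = 0.0328). Its relative Kdm6b was at 35.1 and 40.5 CPM in EV, 28.1 in TC, and 27.4, 27.1 and 25.2 in TC + ATA (-0.43, SE 0.113, adjusted p = 0.0214). In both the TC-expressing libraries lay below EV. The call of Kdm6a was lost without TC + ATA replicate 1 (0.0624), 2 (0.0629) or 3 (0.0750) and in a fit of the EV and TC libraries alone (0.0504), in a range of 0.000147 to 0.147 over 12 alternatives. Its log2 difference was -0.30 without EV replicate 2. The call of Kdm6b was lost without TC + ATA replicate 2 (0.0503) and in the fit of EV and TC alone (0.0768), in a range of 0.000381 to 0.117.

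In the retinoic acid pathway 15 of 18 genes were tested: 2 were higher and 5 lower in TC against EV (median -0.19), and 2 higher and 4 lower in TC + ATA against EV (median -0.08). In TC + ATA against TC 1 was called higher and 1 lower. The shares in TC against EV were 13.3% and 33.3% beside 14.8% and 13.2% of all genes, and in TC + ATA against EV 13.3% and 26.7% beside 18.0% and 18.6%. In TC + ATA against TC they were 6.67% each beside 0.426% and 0.156%, which is 1 gene each, and the list was not tested. Cyp26b1, which breaks down retinoic acid, was at 80.7 and 68.9 CPM in EV, 35.9 in TC, and 66.1, 63.5 and 67.3 in TC + ATA. It was lower in TC than in EV (-1.06, SE 0.110, adjusted p = 0.000126) and higher in TC + ATA than in TC (0.87, SE 0.104, adjusted p = 0.0103). The single TC library enters these comparisons with opposite signs, here and for Aldh1a1 below, so an error in that library would show in both. Crabp1, a carrier of retinoic acid in the cell, was at 254 and 210 CPM in EV, 46.4 in TC, and 25.7, 26.5 and 26.6 in TC + ATA, lower in TC than in EV (-2.32, SE 0.125, adjusted p = 2.85e-06) and lower again in TC + ATA than in TC (-0.82, SE 0.104, adjusted p = 0.0127). Without TC + ATA replicate 1, 2 or 3 both calls in TC + ATA against TC were lost, at adjusted p of 0.0586, 0.0567 and 0.0937 for Cyp26b1 and 0.0836, 0.0847 and 0.111 for Crabp1, in ranges of 4.31e-10 to 0.0937 and 1.88e-08 to 0.111 over 12 alternatives. Aldh1a1, an enzyme of retinoic acid synthesis, was at 2.81 and 2.74 CPM in EV, 1.11 in TC, and 3.24, 2.50 and 2.24 in TC + ATA. It was lower in TC than in EV (-1.32, SE 0.297, adjusted p = 0.00981), while TC + ATA overlapped EV and was not called against TC (1.26, adjusted p = 0.125). The retinoid receptor gene Rxra was at 115 and 103 CPM in EV, 79.0 in TC, and 88.3, 87.5 and 84.3 in TC + ATA (TC minus EV -0.47, SE 0.0919, adjusted p = 0.00499), a call lost in a fit of the EV and TC libraries alone (0.0512, in a range of 1.18e-05 to 0.0512 over 12 alternatives).

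Other regulators of position were looked at in the same way. Of 25 homeobox and T-box genes of regional identity 16 were tested: 1 was higher and 8 lower in TC against EV (median -0.49 beside -0.03 over all genes), 1 higher and 8 lower in TC + ATA against EV (median -0.17), and 1 higher in TC + ATA against TC. The shares were 6.25% and 50% in both comparisons with EV. Of all genes 14.8% and 13.2% were called in TC against EV, and 18.0% and 18.6% in TC + ATA against EV. In TC + ATA against TC the shares were 6.25% and 0% beside 0.426% and 0.156% of all genes, which is 1 gene. The list was not tested. The single TC library enters TC against EV and TC + ATA against TC with opposite signs, so an error in that library would show in both. Prrx1, a homeobox gene of limb and craniofacial mesenchyme, was at 576 and 604 CPM in EV, 263 in TC, and 305, 310 and 299 in TC + ATA (TC minus EV -1.17, SE 0.0897, adjusted p = 2.09e-05). Its relative Prrx2 was at 157 and 139 CPM in EV, 71.4 in TC, and 115, 124 and 128 in TC + ATA, lower in TC than in EV (-1.06, SE 0.107, adjusted p = 0.000110) and higher in TC + ATA than in TC (0.78, SE 0.101, adjusted p = 0.0137). The second of these calls was lost without TC + ATA replicate 2 (0.104) or 3 (0.111), in a range of 3.04e-09 to 0.112 over 12 alternatives. Tbx3, a T-box gene of limb and mammary gland, was at 8.45 and 10.5 CPM in EV, 21.7 in TC, and 18.3, 16.3 and 17.0 in TC + ATA (1.19, SE 0.140, adjusted p = 0.000280). Lhx9, a LIM homeobox gene of limb and gonad, was at 9.49 and 10.3 CPM in EV, 5.72 in TC, and 4.98, 6.49 and 6.34 in TC + ATA (-0.79, SE 0.186, adjusted p = 0.0124). In both EV stood apart from all TC-expressing libraries. Of 12 ParaHox and axial regulators, which include the Cdx activators of HOX genes, 3 were tested (Gdf11, Nr6a1 and T) and 0 were called in any comparison by edgeR, while Cdx2, Cdx4, Gsx2, Pdx1 and Evx1 had 0 counts in all libraries.

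Of the fusion partners, Wwtr1, which encodes TAZ, was at 110 and 104 CPM in EV, 139 in TC, and 131, 129 and 131 in TC + ATA (TC minus EV 0.37, SE 0.0782, edgeR adjusted p = 0.00697). Camta1 was at 18.9 and 15.4 CPM in EV, 19.2 in TC, and 18.4, 18.8 and 18.7 in TC + ATA and was not called. Whether the fusion construct's own reads are counted in these mouse genes was not tested.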

How the data were processed

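Poly(A)-selected libraries (NEBNext Ultra II) of NIH3T3 cells, 6 in all, were sequenced as read pairs. The authors used HISAT2 (version 2.2.1 in the submitters' processing notes) against the mouse build GRCm38.p6 and deposited raw gene counts from featureCounts, with the annotation release and strand setting not given in the sources used here. Symbols, types and exons came from GENCODE M21, which held 55141 of the 55401 gene identifiers. Counts were analysed with edgeR 4.0.16 in R 4.3.3: TMM scaling, filterByExpr, glmQLFit and glmQLFTest on all 6 libraries with group as the only term (3 residual degrees of freedom), Benjamini-Hochberg adjustment over 18539 genes, called at an adjusted p of at most 0.05. SE is the absolute log2 fold change divided by the root of F, and intervals are 95%. The edgeR and DESeq2 steps were tested on simulated data. Levels between genes are CPM per kilobase of merged exons. Alternatives were DESeq2 1.42.0, other scalings, filters and sample sets, a replicate block, a fold limit and leaving out each replicate.

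The Hox genes and the lists were chosen with earlier results of these data known. Some genes are not reported here. Among the others, values in every library are given for Hox genes that passed the filter and were called in at least 1 comparison or averaged at least 1 CPM. From each list up to 4 members called in TC against EV, by absolute log2 fold change, are named, with members called in TC + ATA against TC, and likewise the fusion partners. Lists covered TALE homeodomain genes, Polycomb subunits, MLL and Trithorax genes, the retinoic acid pathway, and ParaHox and axial regulators. Others held positional homeobox and T-box genes, non-coding genes and neighbours of the clusters, and cell type markers.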

Additional observations from a re-analysis of the deposited data

How the results depend on the processing

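The 6 genes called lower and Hoxb6 kept their call and direction in TC against EV under all 12 alternatives with a test. Higher Hox genes in TC against EV numbered 2 with library size only (the cause was not tested), 3 with only the groups compared (fewer samples) and 1 with a log2 fold limit of 2, where 0 were lower. In TC + ATA against EV the higher genes numbered 5 with at least 1 CPM in at least 2 libraries (fewer genes tested) and 5 to 9 with a replicate left out, and the fold limit gave 2 higher and 0 lower. DESeq2 called 5 higher and 6 lower in TC against EV, without Hoxc5 and with Hoxb5, and 7 and 8 in TC + ATA against EV, without Hoxb4. Calls in TC + ATA against TC numbered 0 under every alternative. With a replicate block, 4 higher and 6 lower were called in TC against EV, without Hoxc5 and Hoxc6 and with Hoxb5. In TC + ATA against EV it called 5 and 7, without Hoxb3, Hoxb4, Hoxc5 and Hoxd9. Only 2 pairs, each of an EV and a TC + ATA library, had deviations from a group mean to compare. These correlated at -0.0290 and -0.0861. Of the 52 cluster ratios under alternatives 47 moved by less than the replicate SD. With library size only the TC to EV ratio was -0.88 for Hoxa, 0.41 for Hoxc and -0.34 for Hoxd, and the TC + ATA to TC ratio 0.18 for Hoxa, and per kilobase the Hoxa ratio of TC to EV was -0.81. Counts were few for some genes: EV held 0 to 16 counts of Hoxb3 to Hoxb6. Other limits hold throughout: CPM are shares of each library, so fewer cells with a transcript and less of it per cell cannot be told apart; reads shared by paralogues or pseudogenes are uncertain; and the comparisons share the EV or TC libraries.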
